A study of Mus musculus with 6 samples.

Results

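The complement, coagulation and fibrinolysis genes are 36 genes, named one by one, out of the 20494 gene clusters in a comparison of lungs from mice with and without lincRNA-Cox2. Of these, 24 belong to complement, 9 to coagulation and 3 to fibrinolysis, and all 36 were found in the table with an adjusted p-value. Both groups were untreated male C57BL/6 mice of 4 months. One group was a lincRNA-Cox2 knockout and the other was wild type, with 3 lungs each. The labels name the knockout without saying which bases were removed or in which cells, and they do not say that animals were pooled. RNA came from whole lung, so fewer cells of a type and less RNA per cell cannot be told apart in any value below.

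Complement is a cascade of blood and tissue proteins that tags particles for uptake, draws in leukocytes and forms pores in membranes. It starts by the classical route (C1q with its proteases, then C4 and C2), the lectin route (collectins, ficolins and MASP proteases) or the alternative route (factor B and properdin), which meet at C3 and end in the pore proteins C6 and C7. Coagulation turns tissue factor exposure into a fibrin clot through serine proteases and their cofactors, and fibrinolysis dissolves the clot again with plasmin made by plasminogen activators. Most of these proteins in blood come from liver, while lung macrophages, fibroblasts, endothelium and epithelium make a part of them locally.

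All values come from 1 table, which the authors deposited, of mean normalized counts for each genotype (read counts divided by a size factor for each library) with a DESeq2 comparison over all genes. In the authors' deposited table, lincRNA-Cox2 had a mean of 311 in wild type and 0.666 in knockout lungs (adjusted p = 4.05e-91), and its neighbour Ptgs2, which encodes the inducible cyclooxygenase, had 2929 and 298. The means summed to 3.71e+07 and 3.68e+07 for wild type and knockout, and relative size factors of 0.961 to 1.03 were derived for the 6 libraries, so no library was much deeper than another, though the totals of raw reads are not known. The table holds no value of a single library. A log2 ratio here is the log2 of the knockout mean over the wild type mean, and its standard error (SE) and 95% interval were recovered from the table as described under processing.

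No member passed the test: 0 of 36 had an adjusted p under 0.05 by DESeq2 in the authors' deposited table, where 1.09% of the 16902 genes tested did. By direction, 0.592% of all genes were called higher and 0.497% lower. Before adjustment, 7 members (19.4%) had a p under 0.05, against 8.47% of all genes. Of these 7, C1s, C2, C7, Cfb and C3ar1 had the higher mean in knockout lungs (4.43% of all genes were higher at this level) and Masp1 and Plaur the lower (4.04%). The smallest adjusted p in the authors' deposited table was 0.105 for Plaur, followed by 0.128 for C3ar1.

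The means leaned one way by small amounts. Of the 36 members, 26 had the higher mean in the knockout and 10 the lower, where 49.4% of all genes tested were higher. The median log2 ratio was 0.06, against 0.00 over all genes. In complement, 20 of 24 were higher (median 0.11), while coagulation and fibrinolysis divided into 6 higher and 6 lower (median 0.00). The difference between these groups of genes was not tested. Within 0.15 of 0 on the log2 scale lay 22 members (61.1%), against 76.6% of all genes. For 26 members the whole 95% interval lay within 0.5 of 0. Each interval was read on its own, with no allowance for the number of members.

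**Figure D1:**
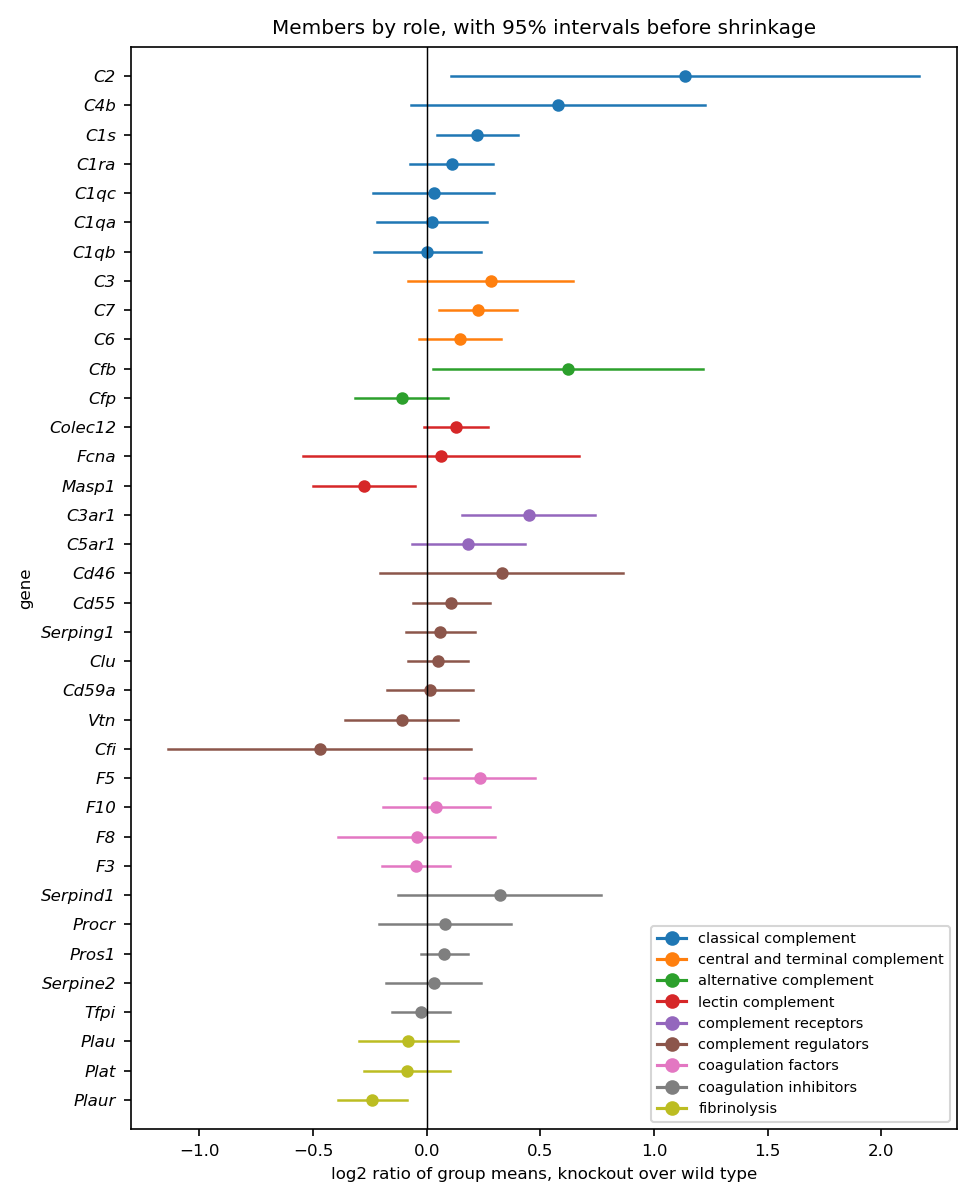
Log2 ratio of group means, knockout over wild type (x axis), for each of the 36 members (y axis, ordered and coloured by role). Points are ratios of means of 3 libraries per genotype and lines are 95% intervals before shrinkage; 7 intervals leave out 0, and the widest is that of C2.

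The promoters of the genes with the smallest p-values in either direction, C3ar1 (higher) and Plaur (lower), are shown. Both hold a sequence of the AP-1 type, the site bound by Fos and Jun dimers, which was a reason to show them. Each is the 250 bases just before the most upstream start in RefSeq (GRCm38.p6, the mm10 assembly), read 5′ to 3′ on the gene's strand. Capitals mark matches to the motifs searched. In these windows they are AP-1 sites (TGANTCA) and Sp1 sites (GGGCGG) on either strand. One TATA box (TATAAA) in C3ar1 is marked as well. C3ar1 lies at chr6:122856158-122856407 on the minus strand and Plaur at chr7:24462233-24462482 on the plus strand.
C3ar1: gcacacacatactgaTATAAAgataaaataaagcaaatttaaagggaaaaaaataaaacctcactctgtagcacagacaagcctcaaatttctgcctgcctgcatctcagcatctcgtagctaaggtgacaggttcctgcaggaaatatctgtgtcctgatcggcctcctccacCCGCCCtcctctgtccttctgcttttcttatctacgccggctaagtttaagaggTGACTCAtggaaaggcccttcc
Plaur: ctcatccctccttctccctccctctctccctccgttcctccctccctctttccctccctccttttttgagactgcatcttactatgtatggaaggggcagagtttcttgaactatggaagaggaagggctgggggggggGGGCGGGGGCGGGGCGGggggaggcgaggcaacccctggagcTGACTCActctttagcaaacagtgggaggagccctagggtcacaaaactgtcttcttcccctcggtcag

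The AP-1 match stood at bases -22 to -16 before the start in C3ar1 and at -69 to -63 in Plaur. RefSeq windows were found for 25 of the 36 members, and 4 of them held the AP-1 letters (16.0%), namely C3ar1, Plaur, F3 and Procr, against 6.73% of 32536 windows of the same length. F3 and Procr had log2 ratios of -0.05 and 0.08. The windows of C7 and C1s, members that also had an unadjusted p under 0.05, held no AP-1 letters. Other motifs were searched on both strands in the same windows. Sp1 was in 9 members (33.0% of all windows) and TATA in 4 (12.3%). The CCAAT box was in 2 members (33.8%). The STAT type site TTCNNNGAA was in 2 members (7.04%), of which C7 is one. The cyclic AMP type site TGACGTCA was in 0 members (1.56%), and so was the E-box CACGTG (6.04%). Each motif was counted on its own, so that a stretch can count for several, and in Plaur a pair of the 3 Sp1 matches share a base. Such matches are letters in a window and say nothing of a factor being bound.

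In the classical route, all 7 members had the higher mean in the knockout, with a median log2 ratio of 0.11 and none past the test. The C1q chains, which recognise antibody and debris and are made mainly by macrophages, stood at nearly equal means. In the authors' deposited table, C1qa was at 1052 in wild type and 1068 in knockout lungs, C1qb at 995 and 997, and C1qc at 828 and 845. Their log2 ratios were 0.02 ± 0.12, 0.00 ± 0.12 and 0.03 ± 0.14 (SE), and all 3 intervals lay between -0.23 and 0.30. The 3 genes stand side by side on chromosome 4, with 3.62 and 2.85 kb between them.

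C1ra and C1s encode the proteases of the C1 complex and lie 6.90 kb apart on chromosome 6. C1s had a mean of 4777 in wild type and 5573 in knockout lungs in the authors' deposited table (p = 0.0142, adjusted p = 0.347). Its log2 ratio was 0.22 ± 0.09 (SE), with an interval from 0.04 to 0.40. C1ra was at 2577 and 2782 in the authors' deposited table, a log2 ratio of 0.11 ± 0.09. Reads of these genes may be divided with the close copies C1rb and C1s2, and an antisense gene covers 18.4% of the exon bases of C1s, so both values are uncertain in that respect.

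C2 and C4b, which form the classical C3 convertase, had the wide intervals of the group. C2 had a mean of 503 in wild type and 1107 in knockout lungs in the authors' deposited table (p = 0.0304, adjusted p = 0.493). This was the largest ratio among the members, 2.20-fold, with a log2 ratio of 1.14 ± 0.53 (SE) and an interval from 0.11 to 2.17. The shrunken log2 fold change that the authors' deposited table gives for C2 is 0.11. C4b was at 4854 and 7237 in the authors' deposited table (p = 0.0809), a log2 ratio of 0.58 ± 0.33 with an interval that included 0. The copy C4a is close in sequence to C4b, and their reads may be divided.

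Cfb, the protease of the alternative convertase, and C3, the protein both convertases cut, lay on the same side. Cfb had a mean of 1206 in wild type and 1854 in knockout lungs in the authors' deposited table (p = 0.0407, adjusted p = 0.547), a log2 ratio of 0.62 ± 0.30 (SE). C3 was at 19331 and 23486 in the authors' deposited table (p = 0.129), a log2 ratio of 0.28 ± 0.19. Properdin (Cfp), which steadies the alternative convertase, was at 709.6 and 658 in the authors' deposited table, a log2 ratio of -0.11 ± 0.10. C2 and Cfb are neighbours on chromosome 17 (C2 from 34862604 to 34898265 and Cfb from 34856374 to 34862518, both on the minus strand), 85 bases apart, and C4b lies 112 kb from Cfb. A read-through gene model of the same strand, Gm20547, covers 42.8% of the exon bases of C2 and 79.5% of those of Cfb, and how reads in those exons were counted is not given in the sources used here.

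C2, C4b, Cfb and C3 also had standard errors far above those of genes of like abundance. The SE was 5.75 times the median of genes with a mean within 2-fold for C2, 5.34 times for C4b, 3.94 times for Cfb and 3.05 times for C3, and 1.65 times for the protease inhibitor Serpine2. Of the 35 members with a mean of at least 50, 5 were past 1.5 times (4.22% of 15197 such genes were) and 4 past 3 times (1.13%). The table does not show which lungs this spread came from. Reads of libraries, called A, B and C, could be derived for genes of low mean. Knockout library B held most of the knockout reads in 86 of 2218 such genes, library A in 38 and library C in 8. For wild type libraries A, B and C the counts were 25, 23 and 13 of 2389. The part of knockout library B in the errors of C2, C4b, Cfb and C3 was not tested. Without these 4 genes, a choice made after their errors were seen, 22 of 32 members were higher, with a median log2 ratio of 0.05.

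**Figure D2:**
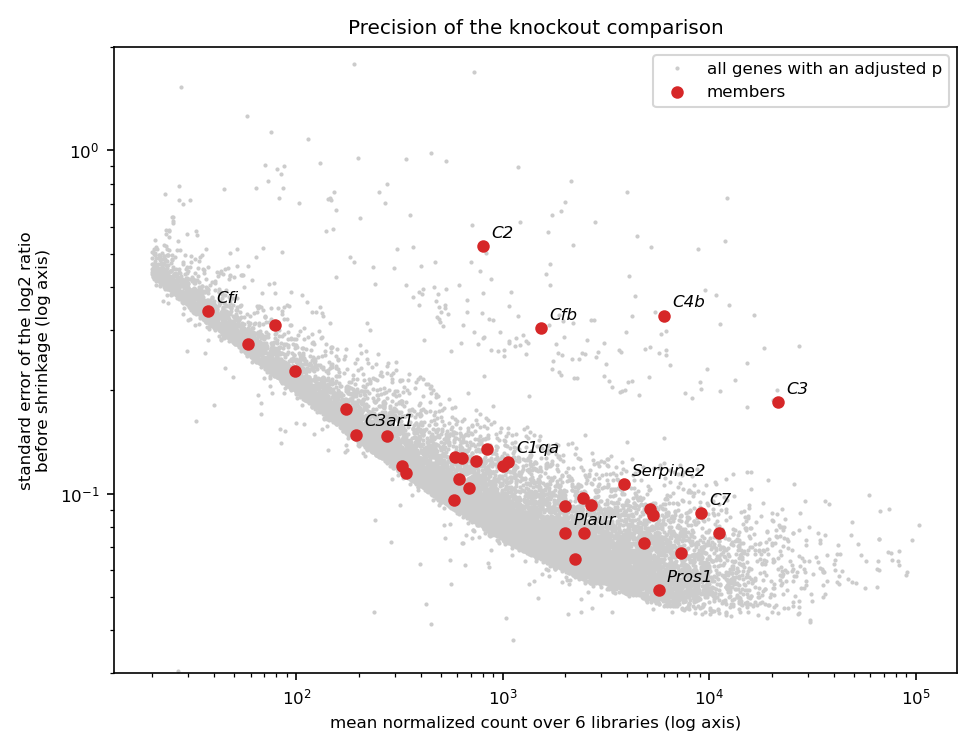
Standard error of the log2 ratio before shrinkage (y axis, log scale) against the mean normalized count over 6 libraries (x axis, log scale). Grey points are genes with an adjusted p, without those of the lowest means or beyond the y axis. Red points are the members. C2, C4b, Cfb and C3 lie above the band of genes of like mean, while C3ar1 and Plaur lie within it.

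Markers of mesothelium, the cell layer that covers the lung, were divided, with 5 of 8 higher in knockout lungs and 3 lower. Of the higher ones, Msln (278 and 1515), Upk3b (146 and 1404), Lrrn4 (71.9 and 608) and Wt1 (8.95 and 65.8) have a blank p-value in the authors' deposited table, which gives these wild type and knockout means. Rspo1 rose from 477 to 829 in the authors' deposited table (adjusted p = 3.78e-05), while the lower ones, Krt19, Upk1b and Cpe, had log2 ratios of -0.00, -0.03 and -0.15, none past the test. The SE of the log2 ratio was 0.96 for Msln, 1.34 for Upk3b, 1.36 for Lrrn4 and 0.74 for Wt1. The summed level of the list was 9698 in wild type and 12928 in knockout lungs. For Wt1, reads of single libraries could be derived: 11, 13 and 3 in the wild type libraries and 28, 137 and 35 in the knockout libraries, so that library B of the knockout held most of them. The part of these markers in the values of C2, C4b, Cfb and C3 was not tested.

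C6 and C7, components of the membrane pore, are 174 kb apart on chromosome 15. C7 had a mean of 8423 in wild type and 9855 in knockout lungs in the authors' deposited table (p = 0.00982, adjusted p = 0.286). Its log2 ratio was 0.23 ± 0.09 (SE), with an interval from 0.05 to 0.40. C6 was at 1894 and 2095 in the authors' deposited table (p = 0.113), a log2 ratio of 0.15 ± 0.09. With C3, the 3 central and terminal members had a median log2 ratio of 0.23.

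The lectin route had no common direction. Masp1, a protease of the lectin complexes, had a mean of 372 in wild type and 308 in knockout lungs in the authors' deposited table (p = 0.0165, adjusted p = 0.373), a log2 ratio of -0.28 ± 0.11 (SE) with an interval from -0.50 to -0.05. Colec12, a membrane-bound collectin, was at 4592 and 5023 in the authors' deposited table (p = 0.0718), a log2 ratio of 0.13 ± 0.07. Ficolin A (Fcna), a recognition protein of macrophages, was at 77.2 and 80.8 in the authors' deposited table, and at this level its interval ran from -0.54 to 0.67.

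Of the receptors for the cleaved fragments C3a and C5a, C3ar1 had the larger ratio. C3ar1 had a mean of 163 in wild type and 223 in knockout lungs in the authors' deposited table (p = 0.00255, adjusted p = 0.128). This is 1.36-fold, a log2 ratio of 0.45 ± 0.15 (SE) with an interval from 0.16 to 0.74, and its SE was 0.94 times that of genes of like mean. In the authors' deposited table C5ar1 was at 594 and 674 (adjusted p = 0.826), a log2 ratio of 0.18 ± 0.13. Both receptors are carried by myeloid cells. In the authors' deposited table, 5 of 7 neutrophil markers tested passed the test, all higher in knockout lungs (0.592% of all genes were called higher). The others were Mmp9, with a log2 ratio of 0.19 ± 0.12, and Ltf. Ltf was at 2449 in wild type and 1366 in knockout lungs, a log2 ratio of -0.84 ± 0.66. The neutrophil markers had a summed level over 10 genes of 9950 in wild type and 13239 in knockout lungs. Of 10 macrophage and monocyte markers, 7 were higher, with a median log2 ratio of 0.15, and 4 of these had an unadjusted p under 0.05 (Emr1, Marco, Ccr2 and Ly6c2, with log2 ratios of 0.19, 0.44, 0.33 and 0.30). None of these 4 passed the test. The single one of the 10 that did, Nr4a1, fell (0.497% of all genes were called lower). It is also known as an immediate-early gene, and what lay behind its fall was not tested. The 10 macrophage and monocyte markers summed to 49197 in wild type and 42088 in knockout lungs, of which Nr4a1 made 14598 and 4408. The part of these cells in the receptor values was not tested.

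The regulators that hold complement in check had small ratios or few reads. Serping1, the C1 inhibitor, was at 10903 in wild type and 11371 in knockout lungs in the authors' deposited table, a log2 ratio of 0.06 ± 0.08 (SE). Clusterin (Clu), which keeps the pore out of membranes, had a log2 ratio of 0.05 ± 0.07, and vitronectin (Vtn), with the same role, -0.11 ± 0.13. Cd55, which takes convertases apart, had 0.11 ± 0.09. Cd59a, which blocks the pore, had 0.01 ± 0.10, and its reads may be divided with the copy Cd59b.

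The cofactor Cd46 and the C3b-cutting protease factor I (Cfi) were low enough for reads of each library to be derived. Cfi had 44, 51 and 34 reads in wild type libraries A, B and C and 25, 38 and 31 in knockout libraries A, B and C. These counts overlapped, since the 38 of knockout library B were above the 34 of wild type library C. Its log2 ratio was -0.47 ± 0.34 (SE) and lay between -0.62 and -0.32 when each library was left out in turn. Cd46 had 53, 52 and 49 reads in wild type and 52, 78 and 66 in knockout libraries, which also overlapped, through knockout library A. Its log2 ratio was 0.33 ± 0.27 and lay between 0.20 and 0.48 without each library, and antisense genes cover 14.2% of its exon bases.

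**Figure D3:**
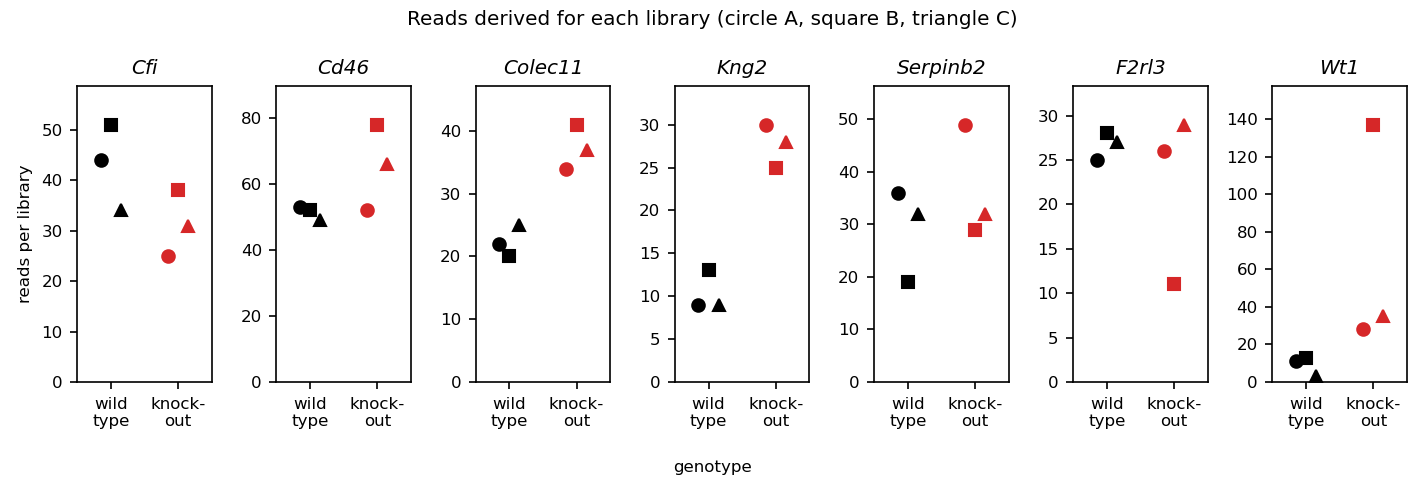
Whole reads per library (y axis) derived from the group means for 2 members (Cfi and Cd46), 4 other pathway genes and the mesothelial marker Wt1, in 3 wild type (black) and 3 knockout (red) libraries. Reads of Colec11, Kng2 and Wt1 do not overlap between genotypes, those of Cfi and Cd46 do, and knockout library B is far above the rest for Wt1.

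The coagulation factors stood close to equal means. Tissue factor (F3), which starts coagulation, was at 2523 in wild type and 2444 in knockout lungs in the authors' deposited table, a log2 ratio of -0.05 ± 0.08 (SE). F10, the protease that makes thrombin, had 0.04 ± 0.12, and F8, the cofactor of factor IX, had -0.04 ± 0.18. The cofactor F5 was at 682 and 802 in the authors' deposited table (p = 0.0609, adjusted p = 0.631), a log2 ratio of 0.23 ± 0.12 with an interval from -0.01 to 0.48. On the chromosome of lincRNA-Cox2, chromosome 1, F5 lies 14.0 Mb from it and Cd55 19.7 Mb, and neither passed the test.

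Among the coagulation inhibitors, protein S (Pros1), the cofactor of activated protein C, had the smallest error of any member. It was at 5524 in wild type and 5830 in knockout lungs in the authors' deposited table (p = 0.137), a log2 ratio of 0.08 ± 0.05 (SE) with an interval from -0.02 to 0.18. Tfpi, the inhibitor of tissue factor, had -0.03 ± 0.06, the protein C receptor Procr 0.08 ± 0.15, and the protease inhibitor Serpine2 0.03 ± 0.11. Heparin cofactor II (Serpind1), an inhibitor of thrombin, was at 87.2 and 109 in the authors' deposited table (p = 0.158), a log2 ratio of 0.32 ± 0.23. Serpind1 was one of 6 members (17.1% of 35 with a mean of at least 50) whose log2 ratio was at least 0.3 in size, where 5.25% of 15217 such genes were. The others were C2, C4b, Cfb, C3ar1 and Cd46, and all 6 were higher; of such genes, 2.79% were past that size on the higher side and 2.46% on the lower.

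All 3 fibrinolysis members had the lower mean in knockout lungs, with a median log2 ratio of -0.09. Plaur, the receptor that holds urokinase at the cell surface, had a mean of 2163 in wild type and 1832 in knockout lungs in the authors' deposited table (p = 0.00190, adjusted p = 0.105). Its log2 ratio was -0.24 ± 0.08 (SE), 1.18-fold lower, with an interval from -0.39 to -0.09. Urokinase itself (Plau) was at 629 and 595 in the authors' deposited table, a log2 ratio of -0.08 ± 0.11. Tissue plasminogen activator (Plat) was at 2504 and 2358 in the authors' deposited table, a log2 ratio of -0.09 ± 0.10.

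Levels of different members were compared per kilobase of merged exon. Serping1 was the highest in both genotypes, with 4690 normalized counts per kb in wild type and 4891 in knockout lungs. C3 followed with 3759 and 4567, and C7 with 3147 and 3683. On this length, the order of these 3 was the same in both genotypes. The lowest in both was Cd46, with 6.79 and 8.53 normalized counts per kb. F8 (17.9 and 17.4) and Cfi (19.4 and 14.0) were just above it, F8 below Cfi in wild type and Cfi below F8 in knockout lungs. C4b moved from place 12 in wild type to 7 in knockout lungs, Cfb from 18 to 14 and C2 from 27 to 23, all of them genes with wide errors. With the longest transcript in place of merged exons, 8 of the 10 highest members were shared, but the order at the top changed: in wild type, Clu came to place 2 with 3978 normalized counts per kb, ahead of C3 with 3764 and C7 with 3147.

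**Figure D4:**
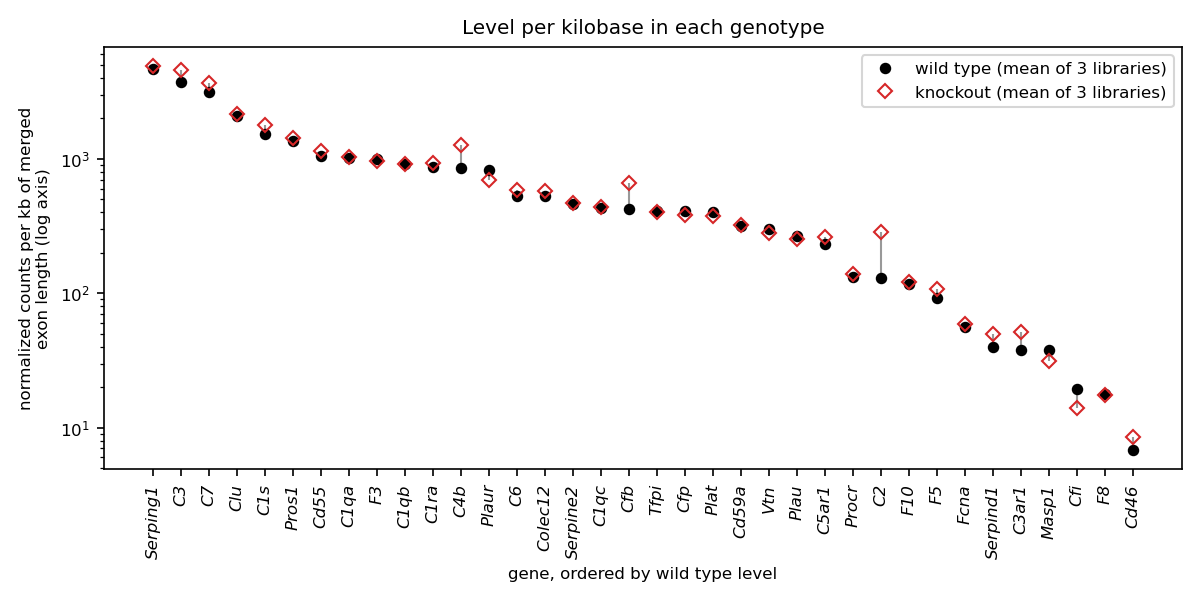
Normalized counts per kilobase of merged exon (y axis, log scale) for each member (x axis, ordered by the wild type level), with black points for the wild type mean and red diamonds for the knockout mean of 3 libraries each. The widest gaps are those of C2, Cfb and C4b, and by merged exons the 3 highest genes are Serping1, C3 and C7 in both genotypes.

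The other genes of these pathways, listed by function, were read the same way. Of 75 listed genes, 64 were in the table and 50 were tested: 26 were higher and 24 lower in knockout lungs, with a median log2 ratio of 0.01. Thbs1, a platelet and matrix protein that binds plasmin and plasminogen, fell from 11259 to 6728 in the authors' deposited table (adjusted p = 0.0439), a log2 ratio of -0.74 ± 0.21 (SE). It was among the 2 genes of the 50 that passed the test (0.497% of all genes passed it on the lower side). Its call ended when p-values were adjusted over every gene with a p-value (adjusted p of 0.0531).

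The immediate-early genes, which tissue switches on within minutes of handling or stimulation, had lower means beside Thbs1 and Plaur. Of 22 in the authors' deposited table, 21 had the lower mean in knockout lungs (50.6% of all genes did), with a median log2 ratio of -0.68. Egr1, Atf3 and Zfp36 passed the test, all lower, where 0.497% of all genes were called lower. Their summed level was 220465 in wild type and 134500 in knockout lungs. Its part in the values of Thbs1 and Plaur was not tested.

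Of the other complement genes, 13 of 22 tested were higher and 9 lower, and none passed the test. Those with an unadjusted p under 0.05 were Colec11, a soluble collectin, at 22.5 in wild type and 37.1 in knockout lungs in the authors' deposited table (p = 0.0484), the receptor chain Itgam at 1906 and 2137 (p = 0.0403) and the endothelial lectin Cd93 at 24171 and 20728 (p = 0.0141). Derived reads of Colec11 were 22, 20 and 25 in wild type and 34, 41 and 37 in knockout libraries, without overlap. Cfd, the adipocyte protease that activates factor B, had 2257 and 1198 in the authors' deposited table (p = 0.159), a log2 ratio of -0.91 ± 0.65 (SE). All 6 adipocyte markers, a list added after the data were seen, were lower beside it, with a summed level of 3101 and 2195 and none past the test. Their part in the value of Cfd was not tested.

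Of the other coagulation genes, 9 of 20 tested were higher and 11 lower, and none passed the test. Kng2, a kininogen, was at 10.4 in wild type and 27.5 in knockout lungs in the authors' deposited table (p = 0.00347, adjusted p = 0.158), a log2 ratio of 1.40 ± 0.48 (SE). Its derived reads were 9, 13 and 9 in wild type and 30, 25 and 28 in knockout libraries, without overlap. Of 17 genes of the other pathway lists with at least 30 derived reads in all, 3 were higher without overlap (6.52% of 2975 such genes). These were Colec11, Kng2 and Vsig4. The 1 that was lower without overlap (8.74%) was Cd59b, with 59, 58 and 60 reads in wild type and 54, 48 and 44 in knockout libraries. With 3 libraries against 3 an exact permutation test cannot go below 0.1. Markers of hepatocytes had a summed level of only 189.9 in wild type and 200.3 in knockout lungs over 7 genes, while markers of lung epithelium summed to 358201 and 367207.

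**Figure D5:**
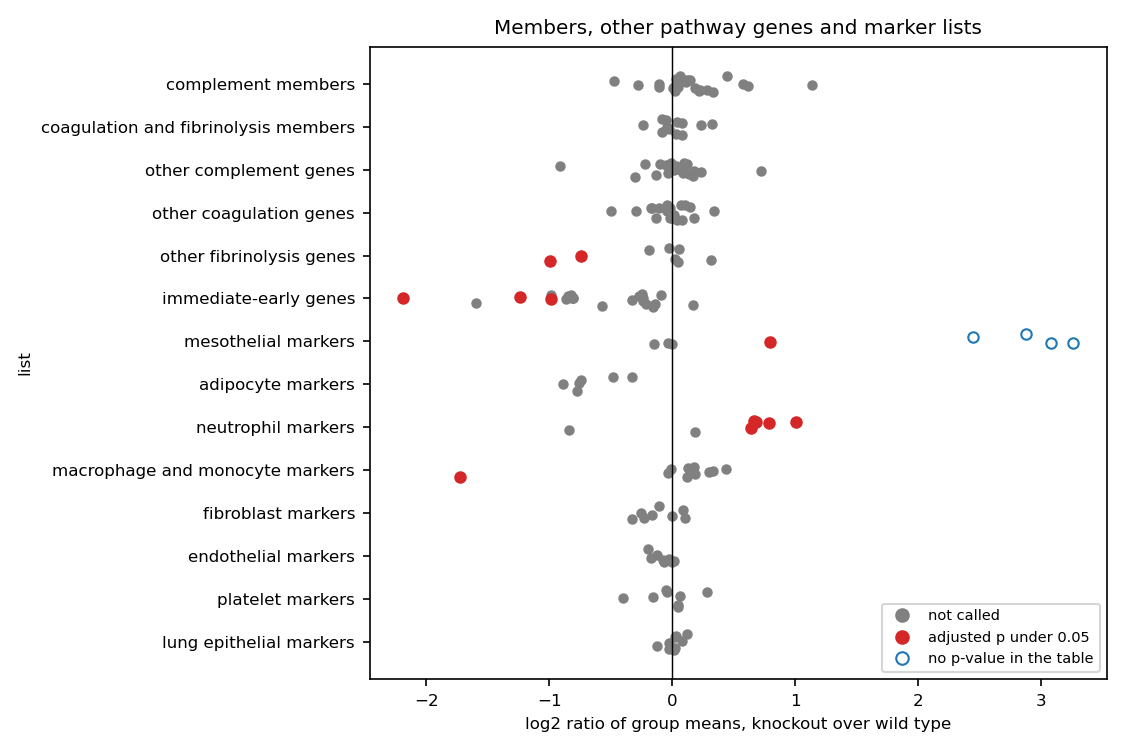
Log2 ratio of group means, knockout over wild type (x axis), of genes in the lists named on the y axis. Genes of the lowest means are not drawn, among them Kng2 with a mean of 18.9 over the 6 libraries. Filled red points are genes with an adjusted p under 0.05, grey points other tested genes and open blue points genes with no p-value in the table. The complement members have a median of 0.11 and the coagulation and fibrinolysis members one of 0.00, with no member red. The other fibrinolysis genes hold 2 red points on the lower side, and 4 mesothelial markers lie above 2.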

How the data were processed

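Total RNA from 6 snap-frozen lungs, 3 per genotype, was made into libraries with the TruSeq RNA kit v2, which does not mark strand, and read as paired ends, per the labels' protocols. Alignment and comparison tools in the submitters' processing notes are STAR 2.5.1b, Bowtie2, DESeq2, bedtools and SAMtools, on mm10. The counting rule is not given in the sources used here. Replicates are taken as separate mice, since the labels speak of mice and title each library on its own.

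Each row of the table is a gene cluster. Its group means are normalized counts, a signal that the header calls base means, made by the authors by dividing reads by size factors. The log2 fold change and its error were shrunken towards 0 by the authors, as the header names a maximum a posteriori estimate. The Wald statistic is a score that the authors computed as that fold change over its error. The p-values, raw and adjusted, come from DESeq2 as run by the authors on 3 knockout and 3 wild type libraries. An adjusted p under 0.05 made a call. No count model was fitted, because no counts of libraries were at hand, so calls were read from the authors' own comparison.

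The standard error before shrinkage was computed as the log2 ratio of means divided by the Wald statistic, and the 95% interval as 1.96 times that. The width of the prior that this implies was nearly the same (0.169 to 0.17) for most of 6267 genes checked. That check left out genes with very small ratios and those with log2 ratios above 1 in size. Among the latter are C2, Kng2, Msln, Upk3b, Lrrn4 and Wt1, whose errors were not checked in this way. Whole reads per library were derived where exactly 1 set of reads gave the printed mean, as it did for all 4901 wild type and 4877 knockout means up to 40, and for some means up to 80. Libraries derived in this way are called A, B and C and carry no replicate number. Both steps were tested on simulated data, the derivation of reads only for means up to 40. Means between 40 and 80, such as those of Cd46, lay outside that simulation. For the standard error, the simulated spread was set without regard to genes of wide errors such as C2. Levels per kb used merged exons of GENCODE M21 (mm10), in which all 36 members were found. Python 3.11.15, pandas 2.3.3, numpy 2.4.6, scipy 1.17.1 and matplotlib 3.10.9 were used.

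The members and all lists were chosen with earlier results of these data known, and the adipocyte list, the alternative without 4 genes and that at an unadjusted p under 0.01 were added after the values were seen. Members were to be described with values at an unadjusted p under 0.05 or if among the 3 highest per kb. A log2 ratio of at least 0.3 in size at a mean of at least 50 also qualified. The other members are given with values too, so that every member is accounted for. Of the other pathway genes, those at an unadjusted p under 0.05 or with a log2 ratio of at least 0.5 in size at a mean of at least 50 were named, and the result of 1 of them is not reported here. Alternatives were other p thresholds and adjustments, the shrunken fold change, centring, a mean of at least 50, a pseudocount of 10 and another gene length. Markers of fibroblasts (6 of 8 lower, median log2 ratio -0.14), endothelium (7 of 8 lower, -0.07), platelets (4 of 8 lower, 0.00) and red cells (6 of 6 higher, 0.17) were also read, and no gene of these 4 lists was called.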

Additional observations from a re-analysis of the deposited data

How the results depend on the processing

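The count of 0 called members was the same at an adjusted p under 0.1, with p-values adjusted over every gene with a p-value, and over genes with a mean of at least 50. At an unadjusted p under 0.01 the count of members fell from 7 to 3. The number of higher members was 26 under the shrunken fold change, after subtracting the median of all genes, at a mean of at least 50 and with a pseudocount of 10, and 22 of 32 without C2, Cfb, C4b and C3. The median log2 ratio lay between 0.04 and 0.06 over those settings. The 2 called genes of the other pathway lists became 0 when p-values were adjusted over every gene with a p-value. Leaving out each library in turn gave log2 ratios of 0.20 to 0.48 for Cd46 and -0.62 to -0.32 for Cfi. The other 34 members are too abundant for reads of single libraries to be derived, so limma on derived reads and fits without a library were not run. No paired analysis was possible because the labels give no replicate number that pairs the genotypes, and the table holds no library values. The 95% interval reached past 0.5 in size for Cfi, Cd46, Fcna, Serpind1, C3ar1, Masp1 and the 4 genes with wide errors, so the data do not bound their differences at that size.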
